A study of Mus musculus with 8 samples.

Results

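To describe the B lymphocyte compartment of chronic stroke infarcts with and without cyclodextrin treatment, 9 B lymphocyte identity and receptor genes were followed across 8 infarct libraries. They are *Ms4a1*, *Cd79a*, *Cd79b*, *Pax5*, *Btla*, *Cr2*, *Fcer2a*, *Ccr6* and *Blk*, taken by symbol from the 46078 gene identifiers in each count table, and each symbol matched 1 identifier. All animals were wild type C57BL/6J male mice aged 18 months that had undergone DH stroke, a permanent closure of the distal middle cerebral artery combined with hypoxia. From week 1 after the stroke, they were injected subcutaneously 3 times weekly over 6 weeks. The vehicle group (n = 4) received sterile PBS and the HPβCD group (n = 4) received 4 g/kg of 2-hydroxypropyl-β-cyclodextrin, a cyclic sugar that holds cholesterol and other lipids in its cavity. The tissue was taken at 7 weeks after stroke by manual dissection, with the borders judged by eye. How much adjoining tissue each piece held was not recorded, and no group without stroke was analysed here.

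B lymphocytes recognise antigen through the B cell receptor, a membrane immunoglobulin bound to the signalling pair CD79A and CD79B. Their identity is held by the transcription factor PAX5, and their surface carries CD20 (*Ms4a1*), complement receptor 2 (*Cr2*), the low-affinity IgE receptor CD23 (*Fcer2a*), the inhibitory receptor BTLA and the chemokine receptor CCR6. The healthy brain parenchyma holds very few of these cells, whereas B lymphocytes and antibody-secreting cells are known to gather in infarcts in the weeks after a stroke. Of the 9 genes, *Btla*, *Ccr6* and *Blk* are also used by some T lymphocytes, and *Cr2* and *Fcer2a* by follicular dendritic cells.

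The motif that couples the receptor to kinases lies in the coding sequences of *Cd79a* and *Cd79b*. Both stretches are shown, 5′ to 3′, because these genes are the obligate signalling part of the receptor. Capitals mark the codons of the paired tyrosines and of the leucine or isoleucine that closes each part of this immunoreceptor tyrosine-based activation motif. In *Btla* the motif shown is the inhibitory one nearest the end of the protein, with the codons of its isoleucine, tyrosine and leucine in capitals. The sequences were read from the GENCODE M21 transcripts on GRCm38.
Cd79a: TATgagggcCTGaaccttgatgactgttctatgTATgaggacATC
Cd79b: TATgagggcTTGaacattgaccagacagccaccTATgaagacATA
Btla: ATTgttTATgcttctTTG
The *Cd79a* stretch spans exons 4 and 5 on the plus strand (chr7:24901296-24901469, intron included). The *Cd79b* stretch spans exons 5 and 6 on the minus strand (chr11:106311867-106312012, intron included). The *Btla* stretch lies in exon 6 on the plus strand (chr16:45250490-45250507). The *Cd79a* and *Cd79b* stretches matched at 31 of 45 bases.

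Libraries held between 16.62 M and 32.93 M gene counts, and vehicle 2 was the deepest. Values are CPM, read counts per 1 M counts of a library whose total was adjusted by TMM. A gene is called changed where its adjusted p in edgeR's quasi-likelihood test, corrected over 14736 tested genes by the Benjamini-Hochberg method, was under 0.05. Log2 fold changes are HPβCD minus vehicle and carry their standard error (SE). Libraries stood apart in neural tissue: the summed level of 6 neuron markers was 5670 CPM in vehicle 3 and 872 CPM in vehicle 1, against 7.41 to 79.6 CPM in the other 6 libraries. Results are therefore also given without these libraries. Replicates are separate animals, and the labels name no sequencing batch.

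All 9 genes had a lower mean in HPβCD infarcts, by 3.53-fold to 5.23-fold. Of these, 4 fell by the edgeR test, *Cd79a*, *Cd79b*, *Fcer2a* and *Blk*, where 1.95% of all tested genes were called in either direction and 0.774% were called lower. The other 5 had adjusted p values of 0.0543 to 0.123. A log2 fold change under 0 was found in 9 of 9 genes and in 54.1% of all tested genes, and the median was -1.95 over the 9 genes and -0.05 over all. DESeq2 called 9 of 9 lower, where it called 11.1% of its tested genes lower. Every one of the 9 passed the filter on low counts, and 8 of them lay above its level of 0.563 CPM in all 4 HPβCD libraries as well. *Ccr6* did so in 3.

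**Figure D1:**
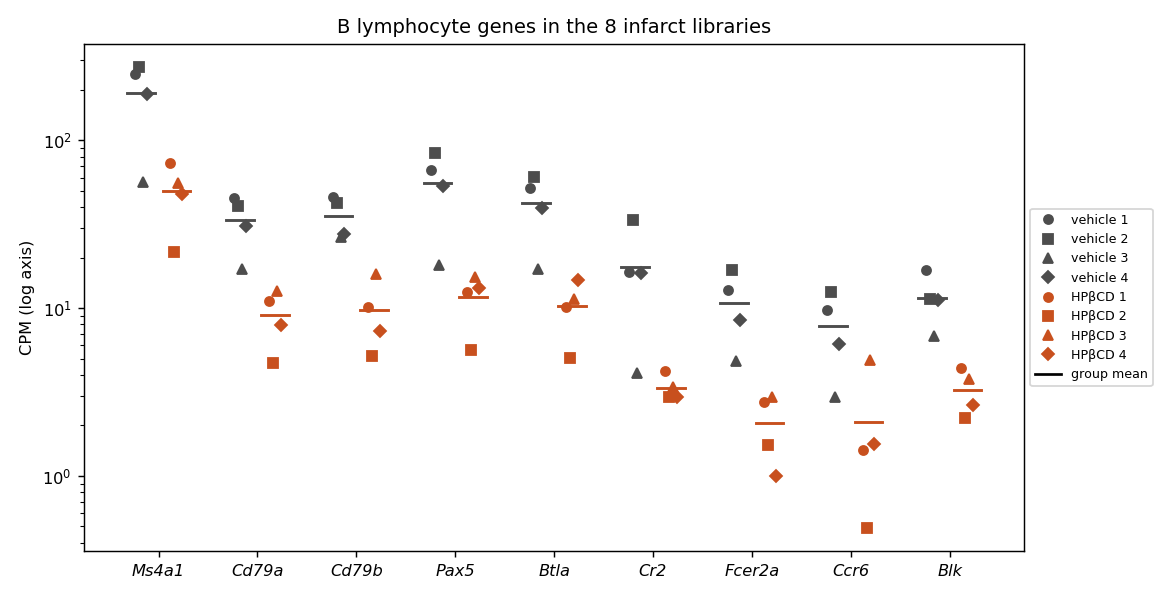
Level of each of the 9 B lymphocyte genes in each infarct library, in CPM on a log axis. Symbols mark the animal number, colours the group (vehicle, HPβCD, n = 4 each) and horizontal bars the group mean; vehicle 3 is the lowest vehicle library for all 9 genes, and the groups do not overlap for 6 of them.

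The signalling pair of the B cell receptor was lower in every HPβCD library than in every vehicle library. *Cd79a* (chromosome 7, 24897381 to 24902197, plus strand) measured 45.6, 40.9, 17.1 and 31.0 CPM in vehicle 1 to 4 and 11.0, 4.72, 12.7 and 7.88 CPM in HPβCD 1 to 4. Its mean went from 33.7 ± 12.6 to 9.07 ± 3.52 CPM (SD, n = 4), a log2 fold change of -1.89 (SE 0.38, adjusted p = 0.0485 by edgeR). *Cd79b* (chromosome 11, 106311341 to 106314762, minus strand) measured 46.1, 42.4, 26.5 and 27.6 CPM in the vehicle libraries and 10.2, 5.21, 16.04 and 7.33 CPM in the HPβCD libraries. Its gap between the lowest vehicle and the highest HPβCD library was wider than that of *Cd79a*. It averaged 35.7 ± 10.1 CPM with vehicle and 9.70 ± 4.70 CPM with HPβCD, a log2 fold change of -1.88 (SE 0.36, adjusted p = 0.0483). The proteins work as a pair, and the counts of the 2 genes stayed close to each other. The count of *Cd79a* was 0.645 to 1.12 times that of *Cd79b* in vehicle and 0.789 to 1.08 times in HPβCD libraries, overlapping ranges.

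*Blk*, which encodes a SRC-family kinase that acts just below the receptor, was also separated between the groups. It lies on chromosome 14 (63372836 to 63417037, minus strand) and measured 16.8, 11.3, 6.78 and 11.2 CPM in the vehicle libraries. In the HPβCD libraries it measured 4.42, 2.21, 3.76 and 2.66 CPM. The log2 fold change was -1.82 (SE 0.33, adjusted p = 0.0483), the smallest change and the smallest SE among the 9 genes.

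*Pax5*, the factor that sets and keeps B lymphocyte identity, did not overlap between the groups but missed the threshold. The gene (chromosome 4, 44524757 to 44710487, minus strand) measured 66.5, 84.6, 18.0 and 53.8 CPM in the vehicle libraries and 12.4, 5.64, 15.3 and 13.1 CPM in the HPβCD libraries. Vehicle 3 lay just above the highest HPβCD library, and the other vehicle libraries lay at 53.8 CPM or more. The log2 fold change was -2.26 (SE 0.49, adjusted p = 0.0550). Of its exon length, 8.6% overlaps genes on the opposite strand, and the strand setting of the counting is not given in the sources used here.

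*Ms4a1*, which encodes CD20 and was the most abundant of the 9 genes, overlapped between the groups through 1 vehicle library. It lies on chromosome 19 (11249675 to 11266241, minus strand) and measured 247, 274, 56.3 and 189 CPM in the vehicle libraries. In the HPβCD libraries it measured 73.1, 21.6, 56.1 and 48.0 CPM, so vehicle 3 lay below HPβCD 1. It averaged 192 ± 96.9 CPM with vehicle and 49.7 ± 21.5 CPM with HPβCD (SD, n = 4), with a log2 fold change of -1.95 (SE 0.53, adjusted p = 0.0796). Without vehicle 3 the log2 fold change was -2.25 with an adjusted p of 0.0319 by edgeR.

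The complement and IgE receptors had the largest fold changes of the set. *Fcer2a*, which encodes CD23 (chromosome 8, 3681737 to 3694175, minus strand), measured 12.8, 16.8, 4.84 and 8.55 CPM in the vehicle libraries and 2.76, 1.53, 2.95 and 0.999 CPM in the HPβCD libraries. It fell without overlap, by 2.38 on the log2 scale (SE 0.47, adjusted p = 0.0483). *Cr2*, which encodes the receptor for complement C3 fragments (chromosome 1, 195136811 to 195176716, minus strand), measured 16.5, 33.6, 4.12 and 16.2 CPM in the vehicle libraries and 4.19, 2.94, 3.38 and 2.94 CPM in the HPβCD libraries. Its vehicle libraries were the most dispersed of the 9 genes, with a coefficient of variation of 68.9%, whereas its HPβCD libraries were the least dispersed at 17.6%. Vehicle 3 lay below HPβCD 1, and the log2 fold change of -2.39 (SE 0.54) had an adjusted p of 0.0598.

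Mouse *Cr2* counts come from a gene that makes both complement receptor 2 and complement receptor 1, and gene-level counts do not separate these products. *Btla* and *Ccr6*, like *Blk*, are shared with some T lymphocytes. *Btla*, whose product binds HVEM and restrains lymphocytes (chromosome 16, 45224315 to 45257670, plus strand), measured 52.0, 60.5, 17.2 and 39.7 CPM in the vehicle libraries and 10.2, 5.02, 11.3 and 14.8 CPM in the HPβCD libraries. The groups did not overlap, and the log2 fold change of -2.04 (SE 0.44) had an adjusted p of 0.0543. *Ccr6*, the receptor of the chemokine CCL20 (chromosome 17, 8236043 to 8257141, plus strand), measured 9.79, 12.5, 2.97 and 6.08 CPM in the vehicle libraries and 1.44, 0.490, 4.94 and 1.55 CPM in the HPβCD libraries. HPβCD 3 lay above vehicle 3, which made *Ccr6* the least separated gene, with a log2 fold change of -1.89 (SE 0.69, adjusted p = 0.123). Without HPβCD 3, the log2 fold change was -2.74 and the adjusted p by edgeR was 0.0904. The counts behind it were low, from 8 to 435 per library.

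Groups did not overlap, with HPβCD lower, for 6 of the 9 genes, against 8.03% of all tested genes. Overlap in *Ms4a1*, *Cr2* and *Ccr6* involved vehicle 3 each time. That library was the lowest vehicle library for 9 of 9 genes, vehicle 2 the highest for 6, and HPβCD 2 the lowest HPβCD library for 8. With vehicle 3 left out, none of the 9 genes overlapped, and 12.1% of all tested genes were then lower without overlap. In that fit edgeR called 8 of the 9, all but *Ccr6*, and called 2.16% of all tested genes lower. With vehicle 1 and vehicle 3 both left out, edgeR called 6 (*Cd79a*, *Pax5*, *Btla*, *Cr2*, *Fcer2a* and *Blk*), where it called 0.856% of all tested genes lower, and the 9 log2 fold changes lay between -2.87 and -1.76. In that fit the vehicle group held only vehicle 2 and vehicle 4. Summed oligodendrocyte markers still measured 1934 and 2553 CPM in these, against 153 to 1701 CPM in the HPβCD libraries. The part of neural tissue in the level of the 9 genes was not tested.

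The calls rested on small margins. In edgeR, 0 of the 9 genes were called without vehicle 1, without vehicle 4 or without any single HPβCD library. Over all tested genes, edgeR called 0 without vehicle 1, vehicle 4, HPβCD 2 or HPβCD 3, and 4 (0.0266%) without HPβCD 1. Without HPβCD 4 it called 353 (2.35%), none of them among the 9. In each of those fits, 8 or 9 of the 9 genes had an unadjusted p under 0.05, as did 19.4% to 28.2% of all tested genes. All 9 log2 fold changes stayed negative in each of 17 alternative fits. In infarct tissue sequenced in bulk, fewer B lymphocytes and less of each transcript per B lymphocyte cannot be told apart.

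**Figure D2:**
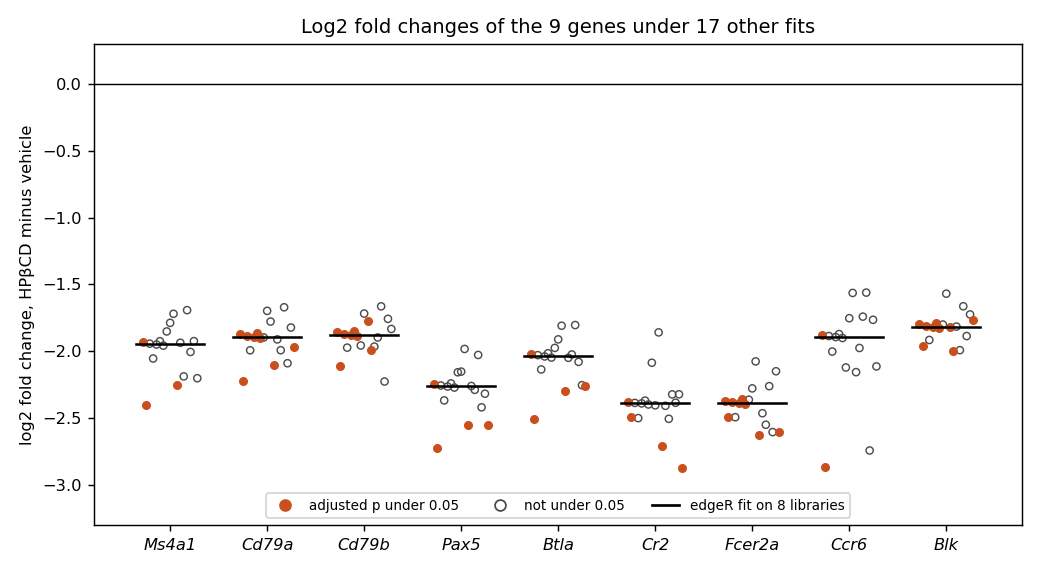
Log2 fold change (HPβCD minus vehicle) of each gene in 17 alternative fits. Each point is 1 fit, filled where the adjusted p was under 0.05, and black bars give the edgeR fit on all 8 libraries; every point lies under 0, between -2.87 and -1.56.

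Per kilobase of exon, the 9 genes kept nearly the same order of level in both groups. In vehicle infarcts *Ms4a1* led at 31.0 ± 15.7 CPM per kilobase (SD, n = 4), followed by *Cd79b* at 24.9 ± 7.03 and *Cd79a* at 23.1 ± 8.67. *Btla* (12.5 ± 5.54), *Pax5* (6.30 ± 3.18), *Blk* (4.27 ± 1.52), *Fcer2a* (3.48 ± 1.68) and *Ccr6* (3.37 ± 1.80) came next, and *Cr2* was lowest at 2.17 ± 1.495. In HPβCD infarcts the range ran from 8.03 ± 3.47 for *Ms4a1* to 0.415 ± 0.073 for *Cr2*, and only *Ccr6* and *Fcer2a* exchanged places. Neighbours in this order had overlapping ranges in both groups. Within single libraries, *Cd79a* was above *Btla* and *Btla* above *Pax5* in 4 of 4 libraries of each group, whereas *Ms4a1* was above *Cd79b* in 3 of 4 vehicle and in 2 of 4 HPβCD libraries.

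The 9 genes varied together from animal to animal. The mean of their centred log2 CPM (each gene's log2 CPM minus its own mean over the 8 libraries) was 1.46, 1.64, -0.11 and 0.99 in vehicle 1 to 4 and -0.69, -1.77, -0.45 and -1.08 in HPβCD 1 to 4. The root mean square difference of a gene from the mean of the other 8 was smallest for *Cd79a* (0.163) and largest for *Ccr6* (0.547), on the log2 scale over 8 libraries. These profiles share libraries, depth and the group difference, and are given as a description. By the same measure, genes outside the set whose profiles lay near to it were *Fcrla* (0.160), *H2-Ob* (0.161), *Bank1* (0.167), *Chst3* (0.192), *Ly6d* (0.285) and *Tnfrsf13c* (0.289), where the median over 13186 candidate genes was 1.23. Of these 6, all but *Chst3*, a chondroitin sulfotransferase, were on the list of other B lymphocyte genes. *Chst3* measured 25.3, 24.5, 5.99 and 15.0 CPM in the vehicle libraries and 5.11, 2.88, 6.87 and 4.22 CPM in the HPβCD libraries. It shared with *Ms4a1*, *Cr2* and *Ccr6* the vehicle 3 value inside the HPβCD range.

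A list of 19 other B lymphocyte genes had a median log2 fold change of -1.50, with 17 of 19 under 0. Called lower by edgeR were 4 of them, against 0.774% of all tested genes, and 0 were called higher. The 4 were *Tnfrsf13c*, the BAFF receptor (-2.31), *Fcmr*, the IgM receptor (-2.18), *Ralgps2* (-1.65) and *Tnfrsf13b*, the receptor TACI (-1.22), named here after their values were seen. The 3 most abundant genes of the list did not share the direction or size: *Cd180*, a Toll-like receptor relative also found on macrophages, had -0.14, *Cd22*, an inhibitory lectin of B lymphocytes, 0.56, and *Cd37* 0.18. *Cd22* measured 58.8 to 76.4 CPM in vehicle and 81.5 to 133 CPM in HPβCD libraries without overlap (adjusted p = 0.0884 by edgeR and 0.0357 by DESeq2). It was thus higher in the group with the lower means of *Ms4a1* and *Cd79a*, and which cells made its transcript was not tested. Within the vehicle group, however, *Cd22* was lowest in vehicle 3, as *Ms4a1* and *Cd79a* were. Of the exon length of *Cd22*, 9.5% overlaps a gene on the opposite strand.

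Transcription factors of B lymphocytes divided in the same manner. Of 10, edgeR called 2 lower, *Bcl11a* (-1.88) and *Pou2af1*, the octamer coactivator (-1.57), where it called 0.774% of all tested genes lower. The list median was -0.98. At an unadjusted p under 0.05 were 6, all lower, against 27.8% of all tested genes in either direction. DESeq2 called 5, against 17.01% of its tested genes, and limma-voom called 6, against 22.1%. *Bcl11a* is also active in neurons, and its highest value (26.9 CPM) was in vehicle 3, where the 9 B lymphocyte genes were lowest. *Ebf1*, which acts beside *Pax5* in B lymphocytes and is also expressed in other cells, had a log2 fold change of 0.03 (SE 0.30). *Foxo1* had 0.16 (SE 0.20) and *Irf8* 0.25 (SE 0.23), and none of the 3 was called.

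Signalling genes downstream of the receptor, which other leukocytes also use, did not follow the 9 genes. Of 14 listed, edgeR called 0 in either direction, with 1 at an unadjusted p under 0.05, and DESeq2 called 1 and limma-voom 2. In the edgeR fit on all 8 libraries, 27.8% of all tested genes had an unadjusted p under 0.05. DESeq2 called 17.01% of its tested genes in either direction, and limma-voom called 22.1%. The counts of this list and of the lists below are to be read against these shares. The median log2 fold change of the 14 genes was 0.04. The 3 most abundant were *Cd81* (0.13, SE 0.17), *Prkcb* (-1.32, SE 0.51) and *Lyn*, a SRC-family kinase like *Blk* (0.05, SE 0.28). *Prkcb* was highest in vehicle 3 (823 CPM) and vehicle 1 (466 CPM), the libraries with the most neuron transcripts. *Blnk*, the adaptor that links the receptor to its effectors, had 0.24 (SE 0.20) and *Btk* 0.03 (SE 0.26), both named after their values were seen, as the textbook steps after CD79A and CD79B. *Malt1* (-0.51), *Dapp1* (-0.29) and *Bcl10* (-0.01) lay under 0 and were not called by edgeR. The 2 limma-voom calls were *Malt1* and *Dapp1*, and the DESeq2 call was *Prkcb*, all lower in HPβCD.

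**Figure D3:**
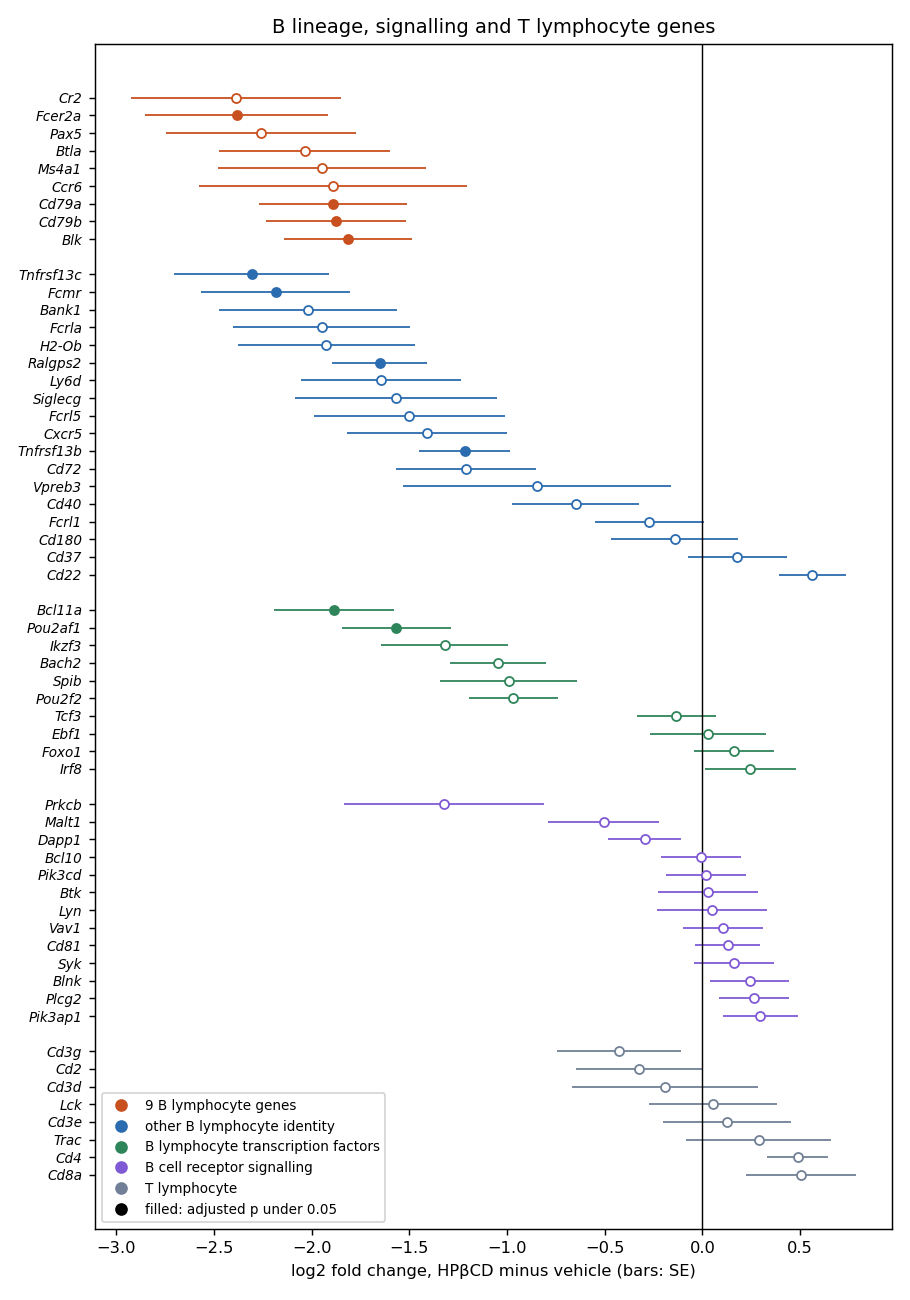
Log2 fold change (HPβCD minus vehicle, bars are SE) of the 9 genes, 18 of 19 other B lymphocyte genes, 10 transcription factors, 13 of 14 receptor signalling genes and 8 T lymphocyte genes. Filled points have an adjusted p under 0.05; the 9 genes lie between -2.39 and -1.82, and the medians over the whole signalling and T lymphocyte lists are 0.04 and 0.09.

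The partners of the 9 proteins were examined next. The immunoglobulin heavy chains that pair with CD79A and CD79B were the partners with the largest differences. *Ighd*, the IgD chain of mature B lymphocytes, measured 123, 115, 32.9 and 68.1 CPM in the vehicle libraries and 14.7, 6.37, 22.5 and 9.55 CPM in the HPβCD libraries. It fell by 2.68 on the log2 scale (SE 0.53, adjusted p = 0.0499), with vehicle 3 lowest among the vehicle libraries as for the 9 genes. *Ighm*, the IgM chain, which antibody-secreting cells also make, had its highest value of 10637 CPM in vehicle 3, and measured 2095 to 3835 CPM in the other vehicle and 163 to 1247 CPM in the HPβCD libraries. Its log2 fold change was -3.37 (SE 0.87, adjusted p = 0.0722). The *Ighm* count was 189 times the *Ms4a1* count in vehicle 3, against 11.1 to 14.0 times in the other vehicle libraries and 2.91 to 17.04 times in the HPβCD libraries.

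*Cd81*, whose product joins *Cr2* in a coreceptor complex, is made by many cell types and had a log2 fold change of 0.13. The ligands and proteases of these receptors did not share their direction. *C3*, the source of the fragments that *Cr2* binds, had 0.82 (SE 0.35, adjusted p = 0.165), and *Adam10*, the protease that sheds CD23, had 0.26 (SE 0.24). *Tnfrsf14*, which encodes HVEM, the ligand of BTLA, had 0.17 (SE 0.19), and *Cd160*, the other receptor of HVEM, had -0.38 (SE 0.32). *Ms4a4b*, a T lymphocyte relative of *Ms4a1*, had -0.01 (SE 0.32), and *Ccl20*, the ligand of CCR6, had 0 counts in all 8 libraries.

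To set B lymphocyte transcripts against other leukocytes without library scaling, log2 ratios of counts within each library were compared. The *Ms4a1* to *Cd3e* ratio, B against T lymphocyte, was 3.29, 3.72, 1.80 and 3.54 in the vehicle libraries and 2.16, 0.36, 0.56 and 1.73 in the HPβCD libraries. Vehicle 3 lay below HPβCD 1, and the difference of -1.88 did not reach the threshold (two-sided exact permutation test over 4 and 4 libraries, p = 0.0571). The *Ms4a1* to *Ptprc* ratio, B lymphocyte against all leukocytes, was -0.37, -0.74, -1.49 and -0.49 in the vehicle and -1.50, -3.20, -2.39 and -2.29 in the HPβCD libraries. The groups were separated by 0.01 only, between vehicle 3 and HPβCD 1. The difference of -1.57 had the smallest p-value that 70 assignments can give (two-sided exact permutation test, p = 0.0286, adjusted over 3 ratios p = 0.0429).

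Against antibody-secreting cells the ratio went the other way. The *Ms4a1* to *Jchain* ratio was -2.44, -3.00, -5.15 and -2.18 in the vehicle libraries and -1.64, -0.92, 0.17 and -0.72 in the HPβCD libraries, without overlap. *Jchain*, the joining chain of secreted IgM and IgA, was thus lower relative to vehicle than *Ms4a1* was. The ratio differed by 2.41 (two-sided exact permutation test, p = 0.0286, adjusted over 3 ratios p = 0.0429). With one library left out, the smallest p-value such a test can give is 0.0571, so these ratios cannot pass the threshold there. Without vehicle 3 the *Ms4a1* to *Jchain* difference was 1.76.

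**Figure D4:**
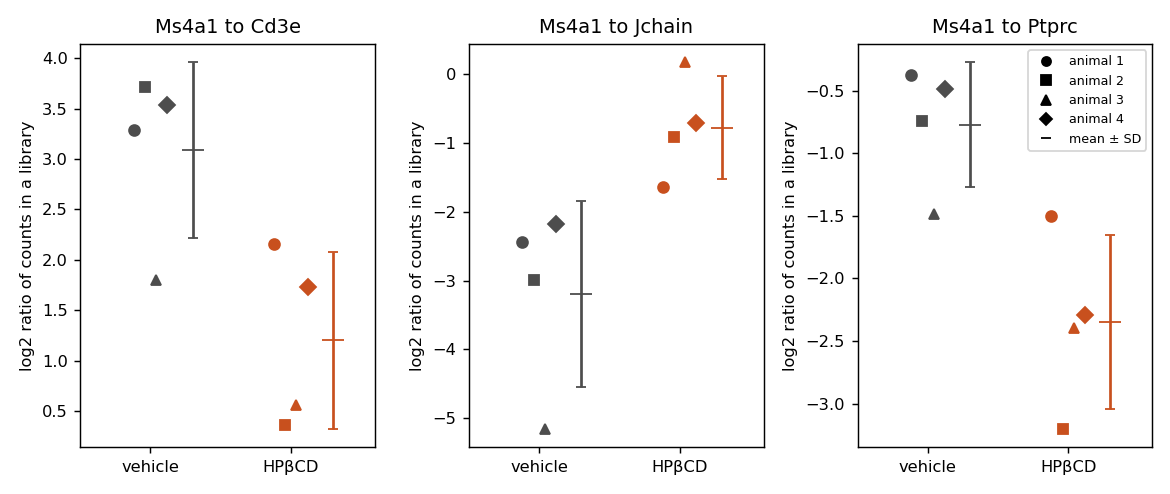
Log2 ratios of *Ms4a1* counts to *Cd3e*, *Jchain* and *Ptprc* counts within each library (0.5 added to each count). Symbols mark the animal number and bars the mean ± SD (n = 4 per group); the groups overlap for *Cd3e*, and are separated for *Jchain* and, by 0.01, for *Ptprc*.

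Lists of the other cells that could carry the 9 transcripts were described in the same way. Of 8 T lymphocyte genes, edgeR called 0, with 1 at an unadjusted p under 0.05, and DESeq2 and limma-voom called 1 each. That gene was *Cd4*, named after its values were seen, which measured 12.7 to 16.2 CPM in vehicle and 16.4 to 21.7 CPM in HPβCD libraries (log2 fold change 0.49). The median log2 fold change of the list was 0.09, with *Lck* at 0.05, *Cd3e* at 0.13, *Trac* at 0.29 and *Cd8a* at 0.51, while *Cd3d* (-0.19), *Cd3g* (-0.43) and *Cd2* (-0.32) lay under 0. Summed, the 8 genes gave 115 to 174 CPM in vehicle and 96.6 to 244 CPM in HPβCD libraries, with HPβCD 3 highest, the library in which *Ccr6* was highest among the HPβCD animals. For T lymphocytes of the interleukin 17 lineage, which use *Ccr6* and *Blk*, 3 of 5 genes were tested, edgeR called 0, with 2 at an unadjusted p under 0.05, and DESeq2 called 1 and limma-voom 2. *Il23r* had -1.34 and *Trdc* -2.19, and *Il17a* and *Il17f* were near or at 0. *Il23r* and *Trdc* each lay above the filter level of 0.563 CPM in 3 vehicle libraries and 1 HPβCD library, so they entered the test through the vehicle group. The summed level of the 5 genes was lowest in vehicle 3 (1.51 CPM) among the vehicle libraries, as for the 9 genes. The part of these cells in the *Ccr6* and *Blk* results was not tested.

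Of 6 dendritic cell genes, edgeR called *Siglech* lower (-2.40), a gene of plasmacytoid dendritic cells and microglia. *Zbtb46* (0.03), *Clec9a* (0.63) and *Ccr7* (-0.90) were not called by edgeR. At an unadjusted p under 0.05 were 2, *Siglech* and *Ccr7*. DESeq2 called 1, *Siglech*, and limma-voom called 2, *Siglech* and *Ccr7*, both lower. The list for follicular dendritic cells, which also use *Cr2* and *Fcer2a*, had 3 tested genes of 4. Whether these cells made the transcripts was not tested. The B lymphocyte chemoattractant *Cxcl13* measured 170, 284, 83.8 and 240 CPM in the vehicle libraries and 49.1, 46.6, 81.6 and 90.2 CPM in the HPβCD libraries. Its log2 fold change was -1.54 (SE 0.39, adjusted p = 0.0677), and vehicle 3 was again lowest in its group. *Ltbr* (0.59) and *Tnfsf13b*, which encodes BAFF (0.15), lay above 0, and *Madcam1* was too low to test. None of these 3 tested genes was called by edgeR, 2 had an unadjusted p under 0.05, and DESeq2 and limma-voom called 2 each.

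Antibody-secreting cells arise from B lymphocytes and lose *Pax5* and *Ms4a1* as they do so. Of 8 plasma cell genes, edgeR called 2 lower and 0 higher, with a list median of -1.58, where it called 0.774% of all tested genes lower. *Jchain* measured 1344, 2184, 1998 and 858 CPM in the vehicle libraries and 229, 41.0, 49.9 and 78.9 CPM in the HPβCD libraries, a log2 fold change of -4.001 (SE 0.64, adjusted p = 0.0462). Unlike the 9 genes, it was not lowest in vehicle 3. *Bhlha15*, a secretory-cell factor named after its values were seen, had -3.57 and was the other call. It lay above the filter level of 0.563 CPM in 4 vehicle libraries and 1 HPβCD library, so it entered the test through the vehicle group. *Xbp1* (-0.28), which many secretory cells use, and *Sdc1* (0.41), which also marks epithelial and stromal cells, were not called.

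Among leukocyte genes at large, *Ptprc* had -0.36, *Coro1a* -0.29, *Cd53* 0.52 and *Cd52* -0.80. Of these 4, edgeR called 0, with 2 at an unadjusted p under 0.05, and DESeq2 and limma-voom each called *Cd52* lower. Other cell types moved with the groups beside the 9 genes. Of 6 macrophage and microglia markers edgeR called 1, *Gpnmb*, which rose (1.38), while *Csf1r* (0.13), *Cd68* (0.88), *Aif1* (-0.13) and *P2ry12* (-1.02) were not called. At an unadjusted p under 0.05 were 3, *Gpnmb*, *Cd68* and *P2ry12*, and DESeq2 and limma-voom called the same 3. *Cd68* was higher without overlap, at 104 to 152 CPM in vehicle and 187 to 310 CPM in HPβCD libraries. *P2ry12* was lower without overlap, at 33.1 to 53.5 CPM and 13.7 to 29.1 CPM. The summed level of the 6 markers was 3644 to 6179 CPM in vehicle and 9159 to 15711 CPM in HPβCD libraries, most of it *Gpnmb*. The other 5 markers, *Cd68* and *P2ry12* among them, summed to 590 to 705 CPM and 683 to 1097 CPM, overlapping ranges. Of 5 fibroblast markers edgeR called 2, *Col1a1* (1.61) and *Col1a2* (1.46), both higher, and *Dcn* had 0.80. At an unadjusted p under 0.05 were 4 of the 5, and DESeq2 and limma-voom called 3 each. The 5 markers summed to 2152 to 4830 CPM in vehicle and 6939 to 7757 CPM in HPβCD libraries. No marker of either list was at 0, and their part in the level of the 9 genes was not tested.

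Neural markers were uneven within the vehicle group. Of 6 neuron markers 5 were tested and edgeR called 0, with 5 at an unadjusted p under 0.05, while DESeq2 called 4 and limma-voom 0. The log2 fold changes by edgeR were -6.48 for *Snap25*, -5.85 for *Syt1* and -5.91 for *Slc17a7*. DESeq2 gave *Slc17a7* no adjusted p, so it was not among its calls. Oligodendrocyte markers summed to 1297 to 4261 CPM in vehicle and 153 to 1701 CPM in HPβCD libraries, and edgeR called 0 of 5, with 0 at an unadjusted p under 0.05, DESeq2 1 and limma-voom 5 (*Mbp* -1.65 and *Cnp* -0.91). Astrocyte markers summed to 1918 to 8430 CPM and 545 to 2268 CPM, and edgeR called 0 of 5, with 3 at an unadjusted p under 0.05, DESeq2 3 and limma-voom 4 (*Slc1a2* -3.18, *Gfap* -1.15 and *Aqp4* -1.77). Vehicle 3 had the highest summed neuron and astrocyte levels of all 8 libraries and the lowest B lymphocyte level of its group.

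**Figure D5:**
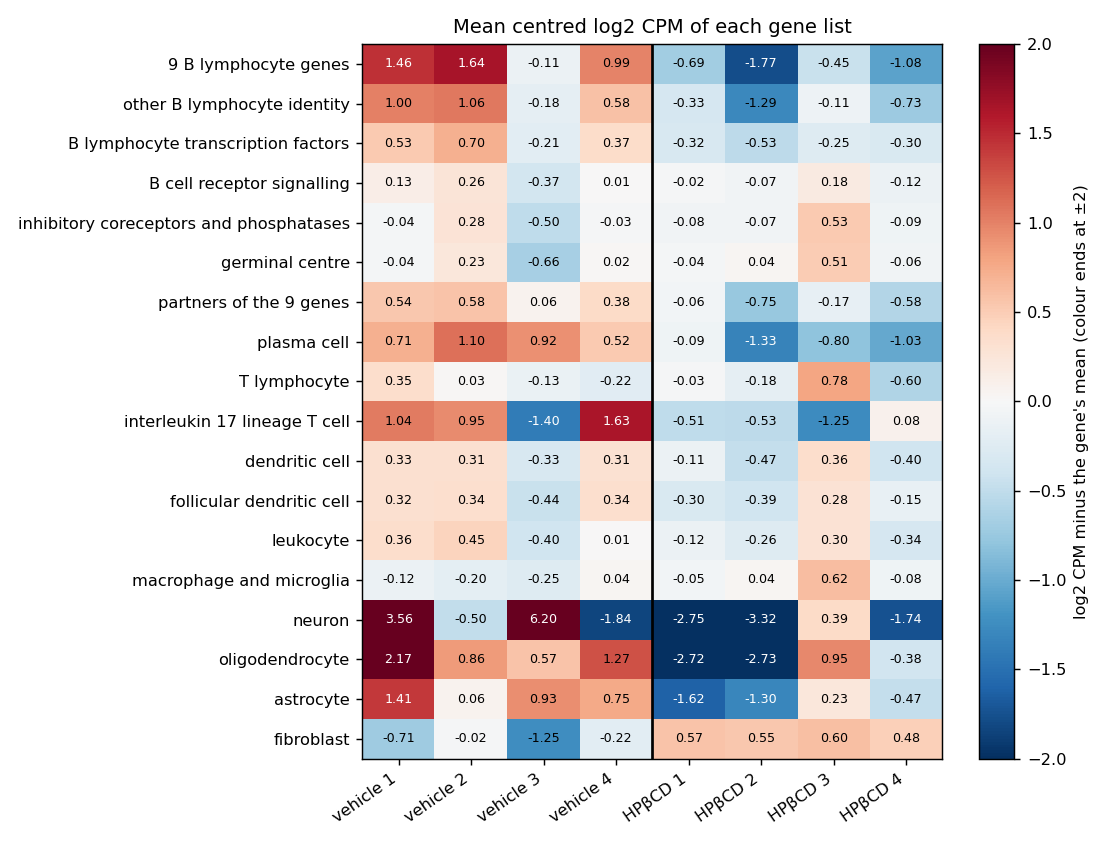
Mean centred log2 CPM (each gene's log2 CPM minus its mean over 8 libraries) of 18 gene lists in each library, with colours ending at 2 and -2. The 9 B lymphocyte genes run from 1.64 in vehicle 2 to -1.77 in HPβCD 2 with -0.11 in vehicle 3, whereas the neuron list is highest in vehicle 3.

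Since the 9 genes moved together, their promoters were read for shared letters. The RefSeq promoter table (GRCm38.p6, 250 bases before to 50 after each start) held 9 windows for 6 of the 9 genes, *Cd79a*, *Pax5*, *Btla*, *Cr2*, *Fcer2a* and *Ccr6*. Both strands were searched for an octamer (ATGCAAAT), a PU.1 site (GAGGAAGT), an EBF site (CCCNNGGG) and an NF-kB site (GGGA, any 4 bases, then CC). The octamer was in 1 window of *Ccr6*, at -68 from the start and on the opposite strand, and in 1.74% of the 32851 windows in the table. The PU.1 letters were in the window of *Btla*, at -18, and in 3.20% of all windows. The NF-kB letters were in 2 windows, of *Cr2* and of the second start of *Ccr6*, and in 20.7% of all windows, and the EBF letters were in 0 windows of the 9 and in 13.7% of all.

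The windows of *Btla* and *Ccr6* with the rarer matches are shown with that of *Cd79a*. *Cd79a* fell, and its window matched none of the 4 letter patterns searched. Capitals mark the match, and a match is a run of letters only. A binding site spelled with other letters is missed by this search, so a window without a match may still hold one.
Cd79a: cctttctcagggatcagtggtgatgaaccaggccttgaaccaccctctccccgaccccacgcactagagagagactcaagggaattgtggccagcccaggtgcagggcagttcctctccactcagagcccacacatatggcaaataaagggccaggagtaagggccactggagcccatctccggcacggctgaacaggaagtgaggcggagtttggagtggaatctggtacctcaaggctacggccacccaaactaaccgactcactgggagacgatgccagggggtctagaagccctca
Btla: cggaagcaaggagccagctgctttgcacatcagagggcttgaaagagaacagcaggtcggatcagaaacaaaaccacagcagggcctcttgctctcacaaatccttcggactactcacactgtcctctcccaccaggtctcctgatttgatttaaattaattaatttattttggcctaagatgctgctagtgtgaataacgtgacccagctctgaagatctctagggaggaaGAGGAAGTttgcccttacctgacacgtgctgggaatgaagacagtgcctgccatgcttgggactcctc
Ccr6: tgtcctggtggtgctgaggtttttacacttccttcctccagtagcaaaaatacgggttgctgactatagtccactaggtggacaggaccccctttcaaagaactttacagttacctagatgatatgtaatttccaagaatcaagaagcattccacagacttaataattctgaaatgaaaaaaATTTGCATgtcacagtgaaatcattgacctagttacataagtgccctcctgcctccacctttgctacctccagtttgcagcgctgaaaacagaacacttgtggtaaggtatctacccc
The *Cd79a* window lies on the plus strand (chr7:24897247-24897546), as do those of *Btla* (chr16:45224087-45224386) and *Ccr6* (chr17:8235793-8236092). No letters searched here were common to the 6 genes.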

How the data were processed

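Messenger RNA of 8 infarcts was sequenced by the authors as stranded, paired-end polyadenylated libraries. They trimmed reads with Trimmomatic 0.32, aligned them to GRCm38 with STAR 2.5.2b and counted genes with htseq-count (bcl2fastq 2.19 made the reads). The strand setting and annotation release are not given in the sources used here. The deposited values are raw counts per gene in 1 table per animal. Between 26.6% and 36.6% of entries named no gene and stayed out of totals and tests. Symbols matched 45143 of 46078 identifiers, and coordinates and exon lengths are from GENCODE M21.

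Groups and animal numbers came from the labels. Counts were tested with edgeR 4.0.16 in R 4.3.3 (robust quasi-likelihood, TMM, filterByExpr, no covariate, adjusted p under 0.05), which kept 14736 genes. The study itself used DESeq2, run here as an alternative (1.42.0), as was limma-voom (3.58.1) with sample quality weights. Other alternatives changed the scaling, the filter, the replicate block and the libraries used. Log2 CPM used a prior count of 2. Ratios were tested by exact permutation. No libraries were duplicates (lowest chi-square per degree of freedom 18.9). The test procedure was checked on simulated data.

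The 9 genes and all lists were chosen with earlier results of these data known. Named are the 9 genes, their partners, the 3 most abundant genes of each other list with those against its direction, and those of the 8 nearest profiles, except a few genes not reported here.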

Additional observations from a re-analysis of the deposited data

Results flagged for a closer look

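In *Tnfrsf14*, which encodes the ligand of BTLA, HPβCD 3 stood apart from its group at 2.79 log2 CPM, where the other 3 HPβCD libraries lay between 3.36 and 3.42. In *Ms4a4b*, the T lymphocyte relative of *Ms4a1*, HPβCD 3 stood apart in the other direction at 6.65 log2 CPM, against 5.53 to 5.72 in the others. Both were found by the gap of 1 library to its nearest neighbour, relative to the range of its group of 4. Over the 42 groups examined, chance at 1 in 20 gives 2.1 such cases. None of the 9 B lymphocyte genes had a library apart by this measure.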

How the results depend on the processing

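All 9 genes were lower in HPβCD infarcts in each of 17 alternative fits. Of 153 pairs of gene and fit, 101 kept their side of the threshold, 35 lost and 17 gained a call. Where edgeR called 287 genes, DESeq2 called 2899, limma-voom 3253 and library totals 11. The 4 called B lymphocyte genes became 9 with DESeq2, 9 with limma-voom, 0 with library totals (9 at an unadjusted p under 0.05 by edgeR) and 6 without vehicle 1 and vehicle 3, and the 4 called of the other 19 became 14, 15, 0 and 6. Leaving out single libraries gave 0 to 629 genes (2922 to 4216 at an unadjusted p under 0.05 where edgeR called 0), 0 to 8 of the 9 and 0 to 10 of the 19. The highest counts came without vehicle 3, and 2 of the 9 were called without vehicle 2. The causes were not tested, other than that fewer samples enter those fits.

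With the animal number as a replicate block, edgeR called 9 genes, 0 of the 9 (8 at an unadjusted p under 0.05) and 0 of the 19. The numbers share no animal, batch or litter in the labels, the deviations of same-numbered libraries from their group means had r of -0.26, 0.24, 0.33 and 0.10 across genes, and 3 of 8 samples were closest to their own number. The block left the *Ms4a1* to *Jchain* and *Ms4a1* to *Ptprc* differences at 2.41 and -1.57, with an exact p of 0.125, the smallest 4 pairs can give. These differences were 1.81 and -1.73 without vehicle 1 and vehicle 3, and 1.76 to 2.75 and -1.86 to -1.29 with single libraries left out, where no exact test can pass.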

Other observations

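Genes of the germinal centre, the structure in which B lymphocytes mutate and select their receptors, were scarce. *Mef2b* had 0 counts in all 8 libraries, and *Rgs13* reached at most 6 counts and was too low to test. The 4 tested of 7 listed were not called by edgeR, with 1 at an unadjusted p under 0.05, 0 calls by DESeq2 and 1 by limma-voom. *S1pr2* had a log2 fold change of 0.61, *Bcl6* 0.07, *Mki67* 0.38 and *Gcsam* -0.16, and most of these genes are also used by other cells.

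Inhibitory receptors and phosphatases that restrain B cell receptor signalling did not share the direction of the 9 genes, with a median log2 fold change of 0.16 over 6. *Fcgr2b*, the inhibitory Fc receptor of B lymphocytes and myeloid cells, had 0.50, *Lair1* 0.00 and *Pirb* 0.59, while *Ptpn6* (-0.18) and *Cd5* (-0.37) lay under 0. None was called by edgeR, 1 had an unadjusted p under 0.05, and DESeq2 and limma-voom called 1 each.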
